A study of Mus musculus with 18 samples.

Results

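Many proteins regulate the proteasome from outside its proteolytic core, and the 7 genes described here encode such factors. Psme3 and Psme4 encode alternative activators, Psmf1 a regulator that binds the core, Usp14 and Uchl5 deubiquitinases, Ube3c a ubiquitin ligase, and AI314180 an adaptor protein. AI314180 is an older symbol of Ecpas, whose product is best known as Ecm29. The 7 were taken by symbol, from a grouping by function made with earlier results of these data known, and make up 7 of the 24318 genes in the deposited table. All 7 passed the filter on low counts that left 13258 genes for testing.

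The proteasome degrades ubiquitin-tagged proteins in a barrel-shaped core, which the regulatory (19S) cap opens and feeds. Alternative activators dock on the same core ends as that cap and open the gate without needing ubiquitin, while the deubiquitinases and the ligase act on substrates held at the cap by trimming or extending their ubiquitin chains. The transcription factor Nrf1, product of Nfe2l1, is known to raise transcription of core and cap subunit genes when the proteasome is inhibited, and it binds antioxidant response elements as a heterodimer with a small Maf protein. MG132 is a peptide aldehyde that blocks the active sites of the core.

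Polyadenylated RNA was sequenced from immortalised mouse embryonic fibroblasts with the genotype MafF-/-::MafG-/-::MafK-/-, which all 6 groups share, so the mock cells are small Maf-deficient cells and not wild type. T-N1G cells carry the same deletions and express T-N1G, a tethered Nrf1-MafG heterodimer (the genotype labels spell it T-NG1). T-N1G cells and mock cells each received vehicle, 0.3 µM or 1.0 µM MG132 for 12 h, in medium with fetal bovine serum, with 3 libraries in each of the 6 groups and 18 in all. The labels do not name the promoter that drives T-N1G or say whether either line is 1 clone. Separate cultures behind the 3 libraries of a group are not mentioned either, so p-values may reflect technical spread alone.

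Libraries held 18164380 to 21293709 fragments, and the 7 genes had 641 to 17388 fragments each per library. Mafg, the Maf partner in the fusion, averaged 159 ± 15.6 CPM (fragment counts scaled to library size) in T-N1G vehicle libraries and 0.353 ± 0.0709 CPM in mock vehicle libraries (SD, n = 3 each). Fragments assigned to Maff and Mafk averaged up to 38.5 and 7.30 CPM in a group, and as the labels do not give the deleted stretches these do not check the genotype. All 10 fibroblast markers averaged over 1 CPM in every group and summed to between 9609.6 and 14168 CPM per library. At 0.3 µM MG132 8 of the 10 fell and 1 rose in T-N1G cells (median log2 -0.86), and 4 fell and 2 rose in mock cells (-0.38). At 1.0 µM 8 fell and 1 rose in T-N1G cells (-1.12), and 6 fell and 2 rose in mock cells (-0.82). Fell and rose here mean an adjusted p under 0.05 in edgeR's test. At 0.3 µM 30.3% of all genes tested were called lower and 29.1% higher in T-N1G cells, and 28.1% and 25.0% in mock cells. At 1.0 µM the shares were 38.9% and 37.5% in T-N1G cells, and 37.4% and 32.4% in mock cells. Summed markers of leukocytes stayed between 1.81 and 10.2 CPM, of muscle between 1.48 and 9.41 CPM, of endothelium between 5.06 and 87.3 CPM and of epithelium between 16.1 and 73.8 CPM, with the lowest and highest library given. At 1.0 µM MG132 the sums of leukocyte, endothelial and epithelial markers were above, and those of muscle markers below, the sums under vehicle in both lines, without overlap. Of 3 muscle markers tested, 1 (Myh3) was called higher in both lines there, with 2 lower in T-N1G and 1 lower in mock cells. In no group did more than 4 markers of any of these 4 lists average over 1 CPM. Libraries at 1.0 µM MG132 also varied more among themselves, with a median SD of log2 CPM of 0.191 at 1.0 µM against 0.0724 under vehicle in T-N1G cells, and of 0.163 against 0.0577 in mock cells. The part of these differences in the results below was not tested.

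Promoter windows, from 250 bases before to 50 after the annotated start, were available for 6 of the 7 genes from RefSeq (GRCm38.p6), with an alternative second window for AI314180. They were searched for the core of the antioxidant response element, the sequence bound by Nrf1 and a small Maf, written TGACNNNGC on one strand and GCNNNGTCA on the other. Of all 32851 RefSeq windows of this length, 12.4% held a match on either strand. Psme4, Uchl5 and Ube3c each held 1 match, and Psme3, Psmf1 and both AI314180 windows held none. A wider form that also allows TGAGNNNGC was added after the AI314180 sequence was seen. It is held by 27.8% of all windows and matched once in AI314180, where it overlaps an AP-1 match (TGAGTCA, or TGACTCA on the other strand, in 5.2% of all windows). The 4 windows with a match are shown because they pair genes with unlike responses to T-N1G, and capitals mark the match.
Psme4 (chr11:30771525-30771824, plus strand): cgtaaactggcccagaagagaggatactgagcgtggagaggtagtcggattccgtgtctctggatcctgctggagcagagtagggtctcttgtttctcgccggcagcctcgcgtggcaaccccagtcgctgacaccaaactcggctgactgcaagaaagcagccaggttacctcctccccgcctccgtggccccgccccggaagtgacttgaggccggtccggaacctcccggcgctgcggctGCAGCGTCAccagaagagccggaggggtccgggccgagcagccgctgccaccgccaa
AI314180 (chr4:58912700-58912999, minus strand): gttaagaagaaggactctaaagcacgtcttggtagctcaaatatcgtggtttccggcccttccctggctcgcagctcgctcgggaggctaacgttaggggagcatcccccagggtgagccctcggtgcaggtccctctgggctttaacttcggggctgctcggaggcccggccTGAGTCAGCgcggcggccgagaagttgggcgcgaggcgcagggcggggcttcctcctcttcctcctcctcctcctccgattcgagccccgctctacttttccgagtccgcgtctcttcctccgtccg
Uchl5 (chr1:143777028-143777327, plus strand): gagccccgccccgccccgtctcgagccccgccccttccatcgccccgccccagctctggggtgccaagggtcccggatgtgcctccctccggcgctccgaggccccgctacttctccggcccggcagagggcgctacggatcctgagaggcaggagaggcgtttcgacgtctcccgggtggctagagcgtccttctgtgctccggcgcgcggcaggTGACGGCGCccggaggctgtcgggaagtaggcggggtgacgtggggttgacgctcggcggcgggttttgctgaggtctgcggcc
Ube3c (chr5:29568992-29569291, plus strand): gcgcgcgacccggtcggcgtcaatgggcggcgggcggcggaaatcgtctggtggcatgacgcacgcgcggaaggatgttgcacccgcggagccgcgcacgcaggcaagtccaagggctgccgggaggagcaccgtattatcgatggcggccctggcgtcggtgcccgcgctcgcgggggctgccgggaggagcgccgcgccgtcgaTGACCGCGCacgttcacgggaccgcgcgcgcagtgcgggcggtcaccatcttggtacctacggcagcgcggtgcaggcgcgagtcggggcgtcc
The Psme4 match begins 7 bases upstream of the start and lies on the minus strand, where it reads TGACGCTGC. The AI314180 match begins 77, the Uchl5 match 34 and the Ube3c match 44 bases upstream. A short form of the cAMP response element (TGACG, or CGTCA on the other strand, in 20.8% of all windows) shares bases with the matches of Psme4 and Uchl5. The Psmf1 window held a heat shock element pair (GAANNTTC, in 7.86% of all windows) beginning 70 bases upstream, and the Psme3 window a CCAAT box (or ATTGG, in 37.4% of all windows) beginning 14 bases upstream. These are letter matches in 1 window per start and show neither binding nor its absence.

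The question put to these 7 genes was whether their response to proteasome inhibition depended on T-N1G. At 1.0 µM MG132, Usp14, AI314180, Psme4 and Psmf1 had a larger response in T-N1G cells than in mock cells, by the interaction test of edgeR at a Benjamini-Hochberg adjusted p under 0.05. In that comparison 45.0% of all genes tested were called in either direction and 22.9% on the higher side. The same 4 genes were called higher in the interaction at 0.3 µM, where 25.1% of all genes were called and 14.2% were higher. Psme3, Uchl5 and Ube3c were not called in either interaction. The median interaction of the 7 genes was 0.35 (log2) at 0.3 µM and 0.83 at 1.0 µM, against 0.00 and -0.02 over all genes tested. In bulk RNA a change in the number of cells of a kind and a change in RNA per cell cannot be told apart.

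**Figure D1:**
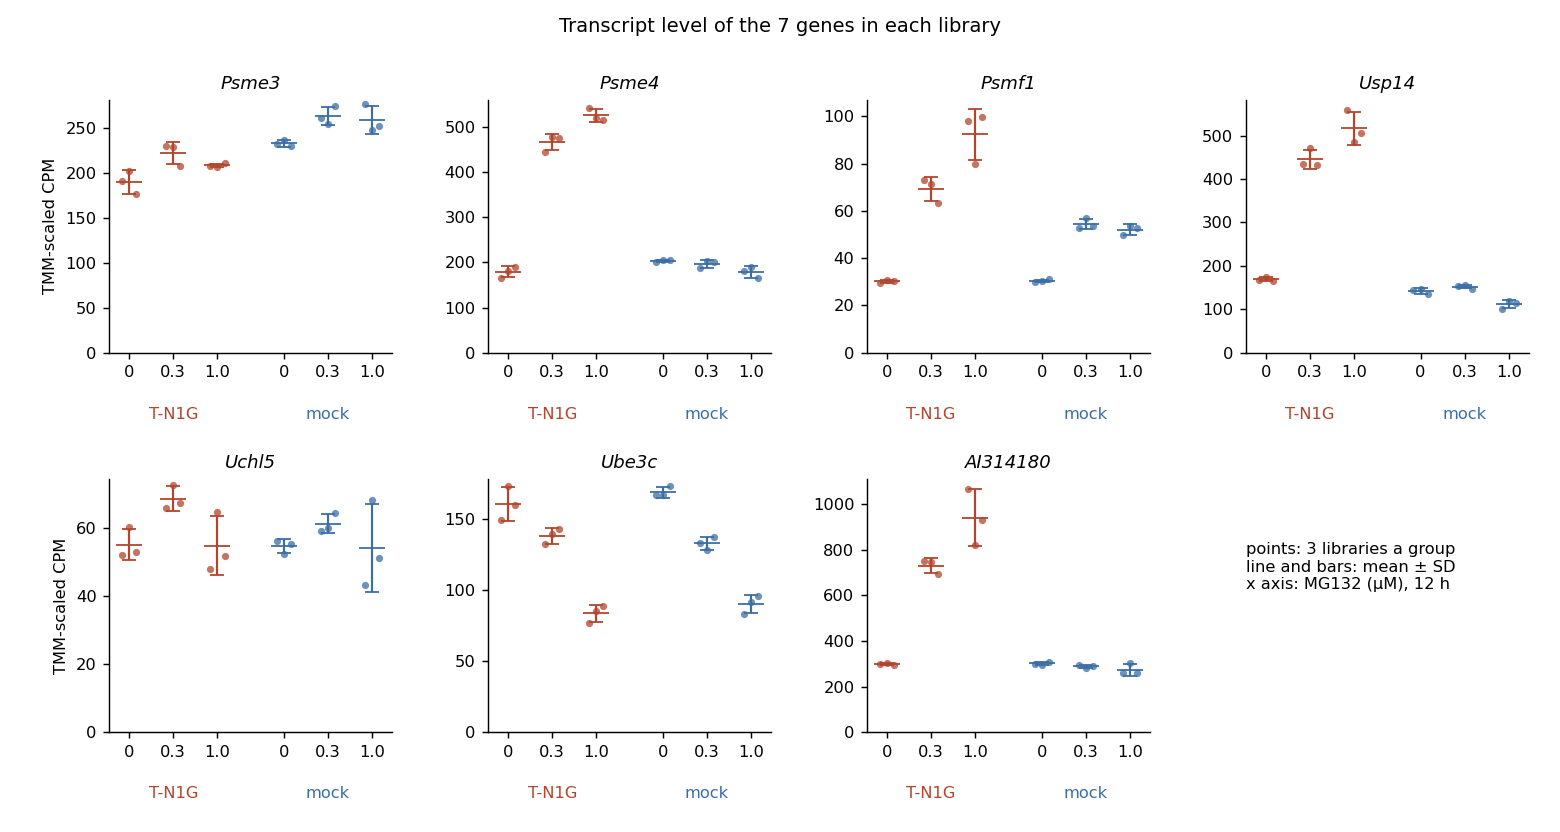
TMM-scaled CPM of each gene in every library (points), with the mean and SD of the 3 libraries of a group (line and bars), by line and MG132 dose in µM. Psme4, Usp14 and AI314180 stand apart in the T-N1G libraries with MG132, Psmf1 is higher with MG132 in both lines, and Ube3c is lower at 1.0 µM in both.

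Of the alternative activators, Psme4 responded to MG132 in T-N1G cells and Psme3 differed little between doses. Psme4 (mm9 chromosome 11, 30671774 to 30780361) encodes PA200, a large activator made of 1 chain that is known mainly from the nucleus and from histone turnover in the testis. Its level was 166, 180.4 and 191 CPM in the T-N1G vehicle libraries, 445, 476.5 and 476 CPM at 0.3 µM and 541, 519 and 515 CPM at 1.0 µM. In mock cells it was 200.4, 205 and 205 CPM under vehicle, 187, 204 and 200.4 CPM at 0.3 µM and 180.2, 190.2 and 165 CPM at 1.0 µM. The T-N1G libraries with MG132 lay above every other library, without overlap, and the mock libraries at 1.0 µM lay below those under vehicle. In T-N1G cells Psme4 rose 2.60-fold at 0.3 µM (log2 1.38, SE 0.070, adjusted p = 2.51e-11) and 2.93-fold at 1.0 µM (log2 1.55, SE 0.070, adjusted p = 1.43e-12). In mock cells the change at 0.3 µM was not called (log2 -0.04, SE 0.069, adjusted p = 0.609), and at 1.0 µM Psme4 fell slightly (log2 -0.19, SE 0.069, adjusted p = 0.0212). That small fall was lost with DESeq2 size factors (adjusted p = 0.185), DESeq2's own test (0.142), the FPKM scale (0.116 with a pseudocount of 0.1), no filter on low counts (0.128) or only the 2 groups in the fit (0.15), and without any of mock vehicle libraries 1, 2 or 3 or mock 1.0 µM libraries 1 or 3 (0.0987 to 0.200). The interaction was 1.42 at 0.3 µM (SE 0.097, adjusted p = 1.47e-08) and 1.74 at 1.0 µM (SE 0.098, adjusted p = 3.78e-10).

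Psme3 (chromosome 11, 101177564 to 101184844) encodes PA28 gamma, a ring-shaped nuclear activator with which the core degrades some regulatory proteins without ubiquitin. T-N1G libraries held 190.4, 202 and 176 CPM under vehicle, 229, 229 and 207 CPM at 0.3 µM and 207, 206.5 and 210.3 CPM at 1.0 µM. Mock libraries held 232, 236 and 229, then 261, 254 and 273.5, then 276, 247 and 252 CPM at the same treatments. At each treatment all 3 T-N1G libraries lay below all 3 mock libraries. Psme3 was lower in T-N1G than in mock cells under vehicle (log2 -0.30, SE 0.067, adjusted p = 0.00520), at 0.3 µM (log2 -0.24, SE 0.067, adjusted p = 0.00584) and at 1.0 µM (log2 -0.31, SE 0.067, adjusted p = 0.000587). It rose a little at 0.3 µM in T-N1G cells (1.17-fold, adjusted p = 0.00703) and in mock cells (1.13-fold, adjusted p = 0.0336). The rise in mock cells was lost with scaling by library size (adjusted p = 0.106) and without mock vehicle library 3 or mock 0.3 µM libraries 1 or 3 (0.0536 to 0.131). At 1.0 µM the difference from vehicle was not called in T-N1G cells (log2 0.14, SE 0.067, adjusted p = 0.0753) or in mock cells (log2 0.15, SE 0.067, adjusted p = 0.0517). Of 14 alternatives, 12 called the rise in mock cells, with leaving out any mock vehicle library or mock 1.0 µM library 1 or 2 among them (adjusted p = 0.00569 to 0.0499), and a replicate block too (0.0471). The rise in T-N1G cells was called by 5, one of which left out T-N1G vehicle library 2 (0.0460), and scaling by library size gave -0.01. The interactions were 0.05 (SE 0.095) and -0.02 (SE 0.095), and neither was called (adjusted p = 0.744 and 0.907).

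Psmf1 (chromosome 2, 151541797 to 151567046) encodes PI31, a protein that inhibits the isolated core in vitro and has also been described as an adaptor for proteasome transport in fly and mouse neurons. It was the only 1 of the 7 genes to be called higher with both doses in both lines. Its level was 29.7, 30.9 and 30.1 CPM in the T-N1G vehicle libraries, 72.8, 71.4 and 63.3 CPM at 0.3 µM and 97.8, 79.9 and 99.5 CPM at 1.0 µM. In mock cells the values were 29.8, 30.3 and 31.0 CPM under vehicle, 52.8, 56.9 and 53.5 CPM at 0.3 µM and 49.6, 53.7 and 52.9 CPM at 1.0 µM. All libraries with MG132 lay above all vehicle libraries, and among those with MG132 the T-N1G libraries lay above the mock libraries. Psmf1 rose 2.29-fold and 3.05-fold in T-N1G cells at 0.3 and 1.0 µM (log2 1.19, SE 0.083, and log2 1.61, SE 0.083, adjusted p = 1.05e-09 and 6.99e-12). In mock cells it rose 1.79-fold and 1.72-fold (log2 0.84, SE 0.082, and log2 0.78, SE 0.083, adjusted p = 1.88e-07 and 1.74e-07). From 0.3 to 1.0 µM it rose further in T-N1G cells (log2 0.42, SE 0.080, adjusted p = 0.000258), while in mock cells the step was not called (log2 -0.06, SE 0.081, adjusted p = 0.542). The interaction at 1.0 µM was 0.83 (SE 0.12, adjusted p = 1.47e-05). At 0.3 µM it was 0.35 (SE 0.12, adjusted p = 0.0328), a call that was lost with no filter on low counts (0.0501) and without any of 8 libraries, at adjusted p of 0.0576 to 0.0833. Those were T-N1G vehicle libraries 1 and 3, T-N1G 0.3 µM libraries 1 and 2, mock vehicle libraries 2 and 3, and mock 0.3 µM libraries 1 and 3.

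The deubiquitinases split. Usp14 (chromosome 18, 9958177 to 10030147) encodes the enzyme that trims ubiquitin chains at the cap and can delay degradation. It stood at 168, 175.5 and 165.5 CPM in the T-N1G vehicle libraries, 433.5, 471 and 432 CPM at 0.3 µM and 559, 485 and 507 CPM at 1.0 µM. Mock libraries stood at 145, 146 and 135 CPM under vehicle, 154, 156 and 148 CPM at 0.3 µM and 102, 119 and 114 CPM at 1.0 µM. The lines did not overlap at any treatment, and the mock libraries at 1.0 µM were the lowest of all 18. In T-N1G cells Usp14 rose 2.63-fold at 0.3 µM (log2 1.39, SE 0.073, adjusted p = 4.50e-11) and 3.05-fold at 1.0 µM (log2 1.61, SE 0.074, adjusted p = 1.81e-12). In mock cells the change at 0.3 µM was not called (log2 0.10, SE 0.073, adjusted p = 0.248), and at 1.0 µM Usp14 fell (log2 -0.35, SE 0.073, adjusted p = 0.000397). The interaction was 1.29 at 0.3 µM (SE 0.10, adjusted p = 9.40e-08) and 1.95 at 1.0 µM (SE 0.10, adjusted p = 1.83e-10), the largest of the 7 genes at the higher dose. At that dose T-N1G cells had 4.63-fold the level of mock cells (log2 2.21, SE 0.076).

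Under vehicle Usp14 was the only 1 of the 7 genes called higher in T-N1G cells (log2 0.26, SE 0.073, adjusted p = 0.0210). That call was lost without T-N1G vehicle library 1 or 2 or mock vehicle library 3, at adjusted p of 0.0561 to 0.0918. The Usp14 locus overlaps that of Thoc1, a gene of the THO export complex, and the strand setting of the counting is not given in the sources used here, so reads of the shared stretch could have been split between them. Thoc1 averaged 55.02 ± 1.60, 65.3 ± 5.76 and 73.6 ± 9.13 CPM in T-N1G cells from vehicle to 1.0 µM, and 62.7 ± 0.994, 76.0 ± 1.33 and 83.3 ± 9.37 CPM in mock cells. Its interaction was -0.03 at 0.3 µM (adjusted p = 0.902) and 0.01 at 1.0 µM (adjusted p = 0.969), with an SE of 0.13 for each.

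Uchl5 (chromosome 1, 145624407 to 145654596) encodes UCH37, the deubiquitinase recruited to the cap by Adrm1. T-N1G libraries held 52.1, 60.2 and 52.9 CPM under vehicle, 65.9, 72.7 and 67.2 CPM at 0.3 µM and 47.9, 64.5 and 51.7 CPM at 1.0 µM. Mock libraries held 56.2, 52.2 and 55.3 CPM under vehicle, 59.2, 59.9 and 64.3 CPM at 0.3 µM and 43.0, 68.2 and 51.0 CPM at 1.0 µM. At 0.3 µM the T-N1G libraries lay just above the mock libraries, and under vehicle and at 1.0 µM the lines overlapped, with the mock libraries at 1.0 µM the most spread of all. At 0.3 µM Uchl5 was higher than under vehicle in T-N1G cells (log2 0.32, SE 0.13, adjusted p = 0.0421) and was lower again at 1.0 µM than at 0.3 µM (log2 -0.33, SE 0.13, adjusted p = 0.0378). Both calls were near the threshold. The first was lost with scaling by library size (adjusted p = 0.134) and without T-N1G vehicle libraries 1 or 3 or any T-N1G 0.3 µM library (0.0574 to 0.130). The second was lost with DESeq2 size factors (0.0664) or DESeq2 (0.0659), on the FPKM scale (0.0546 and 0.0568), with only the 2 groups (0.0629) and without T-N1G 0.3 µM libraries 2 or 3 or T-N1G 1.0 µM libraries 1 or 3 (0.0618 to 0.154). No comparison of the lines was called for Uchl5, with log2 differences of 0.01, 0.17 and 0.02 (SE 0.13 for each) from vehicle to 1.0 µM. The difference at 0.3 µM was called with only the 2 groups (adjusted p = 0.0179) or only the vehicle and 0.3 µM libraries in the fit (0.0313). In mock cells the step from 0.3 to 1.0 µM (log2 -0.18) was called only without mock 1.0 µM library 2 (0.0225). Its interactions were 0.15 and 0.00 (SE 0.18 for each, adjusted p = 0.589 and 0.990).

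Ube3c (chromosome 5, 29895781 to 30002617) encodes a HECT-type ligase, the mammalian counterpart of yeast Hul5, that lengthens ubiquitin chains on substrates at the proteasome. It fell with MG132 in both lines. Its level was 149, 173 and 159 CPM in the T-N1G vehicle libraries, 132, 139 and 143 CPM at 0.3 µM and 76.7, 85.0 and 88.5 CPM at 1.0 µM. In mock cells it was 166, 166 and 173 CPM under vehicle, 133, 128 and 137 CPM at 0.3 µM and 83.0, 91.2 and 95.4 CPM at 1.0 µM. In each line the 3 treatments did not overlap, and at each treatment the lines did. At 1.0 µM Ube3c stood at 0.52-fold the vehicle level in T-N1G cells (log2 -0.94, SE 0.074, adjusted p = 1.65e-09) and at 0.53-fold in mock cells (log2 -0.91, SE 0.073, adjusted p = 6.08e-09). At 0.3 µM the log2 change was -0.22 in T-N1G cells (SE 0.072, adjusted p = 0.0147) and -0.34 in mock cells (SE 0.072, adjusted p = 0.000605). The call in T-N1G cells at 0.3 µM was lost with no filter on low counts (0.0523) and without T-N1G vehicle libraries 2 or 3 or T-N1G 0.3 µM library 1 (0.0534 to 0.0884). The lines were not called different at 1.0 µM (log2 -0.11, SE 0.074, adjusted p = 0.211), except without T-N1G 1.0 µM library 3 or mock 1.0 µM library 1 (0.0264 to 0.0410). The interactions were 0.13 and -0.04 (SE 0.10 for each, adjusted p = 0.403 and 0.792).

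AI314180 (chromosome 4, 58812902 to 58925597) encodes the large HEAT-repeat adaptor that in yeast, as Ecm29, holds cap and core together. T-N1G libraries had 299, 304 and 294 CPM under vehicle, 752, 746 and 692 CPM at 0.3 µM and 1067, 819.5 and 931 CPM at 1.0 µM. Mock libraries had 301, 296 and 307 CPM under vehicle, 293, 281 and 291 CPM at 0.3 µM and 257, 304 and 258 CPM at 1.0 µM. Under vehicle the lines overlapped, and with MG132 the lowest T-N1G library held more than the highest mock library at either dose. AI314180 rose 2.44-fold in T-N1G cells at 0.3 µM (log2 1.29, SE 0.087, adjusted p = 8.61e-10) and 3.14-fold at 1.0 µM (log2 1.65, SE 0.088, adjusted p = 1.15e-11), and in mock cells no change was called (log2 -0.06 and -0.14, adjusted p = 0.562 and 0.152). With scaling by library size the change at 1.0 µM in mock cells was called, at -0.23 (adjusted p = 0.013). The interaction was 1.35 (SE 0.12, adjusted p = 4.18e-07) at 0.3 µM and 1.79 (SE 0.12, adjusted p = 3.89e-09) at 1.0 µM.

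**Figure D2:**
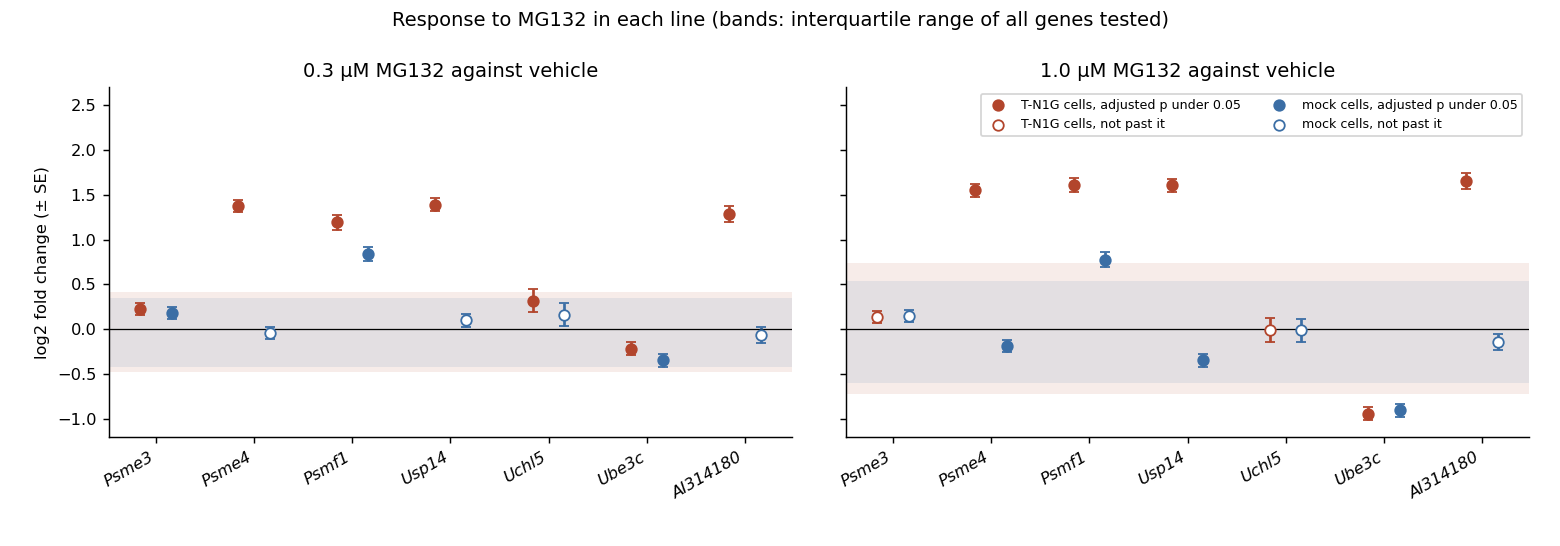
Log2 fold change of each gene at 0.3 µM (left) and 1.0 µM MG132 (right) against vehicle, in T-N1G cells (red, left of each pair) and mock cells (blue), with bars of 1 SE and filled points where the adjusted p was under 0.05. Bands span the interquartile range of all genes tested in the same comparison. The lines part at Psme4, Usp14, AI314180 and, less so, Psmf1, and lie together at Psme3, Uchl5 and Ube3c.

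Counted by comparison, T-N1G cells against mock cells under vehicle had 1 of the 7 genes higher (Usp14) and 1 lower (Psme3), where 16.1% of all genes tested were called, 8.43% higher and 7.72% lower. At 0.3 µM the lines differed in 5 of the 7, with Usp14, AI314180, Psme4 and Psmf1 higher in T-N1G cells and Psme3 lower, against 48.5% of all genes called (25.0% higher, 23.5% lower). The same 4 genes were higher and Psme3 was lower at 1.0 µM, against 61.9% of all genes (30.7% higher, 31.3% lower). Within T-N1G cells, 6 of the 7 rose and Ube3c fell at 0.3 µM MG132 against vehicle, where 59.4% of all genes were called (29.1% higher, 30.3% lower). At 1.0 µM in T-N1G cells 4 rose and Ube3c fell, against 76.4% of all genes (37.5% higher, 38.9% lower).

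Within mock cells, Psmf1 and Psme3 rose and Ube3c fell at 0.3 µM, against 53.1% of all genes called (25.0% higher, 28.1% lower). Usp14 and Uchl5 were called higher as well, 5 genes in all, when only the 2 groups were fitted (adjusted p = 0.00835 and 0.00220) or only the vehicle and 0.3 µM libraries (0.0124 and 0.00553). At 1.0 µM in mock cells Psmf1 rose while Psme4, Usp14 and Ube3c fell, against 69.7% of all genes (32.4% higher, 37.4% lower). With so many genes called at either dose, counts of 3 to 5 of 7, both directions together, are near the background. They are no result about the 7 genes. The count of 7 in T-N1G cells at 0.3 µM stood beside 59.4% of all genes called, and ranged over 5 to 7 in the alternatives.

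The step from 0.3 to 1.0 µM was small beside the step from vehicle to 0.3 µM in T-N1G cells for AI314180, Usp14, Psme4 and Psmf1. AI314180 rose by a further 0.36 on the log2 scale in T-N1G cells (SE 0.086, adjusted p = 0.00151), Usp14 by 0.22 (SE 0.072, adjusted p = 0.0155) and Psme4 by 0.17 (SE 0.068, adjusted p = 0.0364). Together with Psmf1, 4 of the 7 genes were called higher and Uchl5 and Ube3c lower in this step, against 60.0% of all genes tested (29.3% higher, 30.8% lower). With only the 2 groups in the fit the count was 3, as it was without T-N1G 0.3 µM library 3 or T-N1G 1.0 µM library 1. Psme4 was lost without any T-N1G 0.3 µM library or T-N1G 1.0 µM libraries 1 or 2 (adjusted p = 0.0523 to 0.161), and Usp14 without T-N1G 0.3 µM libraries 1 or 3 or T-N1G 1.0 µM library 1 (0.0607 to 0.0774). Scaling by library size, no filter on low counts and only the 2 groups in the fit also lost Psme4 (adjusted p = 0.209, 0.160 and 0.120) and Usp14 (0.0873, 0.0691 and 0.0821), so that 6 and 8 of 14 alternatives called them. Scaling by library size called Psme3 lower in this step (-0.17, adjusted p = 0.0228). In mock cells Usp14 (-0.45, SE 0.073) and Ube3c (-0.56, SE 0.073) were lower at 1.0 than at 0.3 µM, against 49.6% of all genes called (21.8% higher, 27.8% lower), and scaling by library size called Psme4 lower as well (adjusted p = 0.0310).

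The T-N1G transcript itself was not constant across these treatments. Mafg averaged 159 ± 15.6 CPM in T-N1G cells under vehicle, 814 ± 105 CPM at 0.3 µM and 3289 ± 828 CPM at 1.0 µM. In mock cells Mafg averaged between 0.353 and 1.09 CPM. At these low levels edgeR still called it higher at 1.0 µM than under vehicle (3.07-fold, adjusted p = 0.00138). Nfe2l1, whose counts add the transgene to the gene's own transcript, averaged 1102 ± 74.4, 4636 ± 542 and 17004.5 ± 3888 CPM in T-N1G cells and 279.8 ± 7.02, 375 ± 16.8 and 315 ± 18.6 CPM in mock cells. From 0.3 to 1.0 µM Mafg rose 4.04-fold in T-N1G cells, while AI314180 rose 1.29-fold, Usp14 1.16-fold and Psme4 1.13-fold. The part of the transgene's own level in the responses was not tested.

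Set beside the rest of the proteasome system, the responses of Psme4, Usp14 and AI314180 were of the size seen for subunits. All 14 genes of the catalytic core (20S) had a positive interaction at 1.0 µM that passed the test, with a median of 1.32 and the largest at Psma5, an alpha-ring subunit (log2 2.51). Of the 19 cap (19S) genes 17 did, with a median of 1.38 and the largest at Psmd11, a lid subunit (2.03). The values of Usp14 (1.95), AI314180 (1.79) and Psme4 (1.74) lay above both medians, and that of Psmf1 (0.83) below both. Of 8 tested assembly chaperones, from a list of 9, 5 passed upward, led by Psmd5 (2.13), which helps to assemble the cap base, with a median of 0.68. Of 12 shuttle and proteasome-bound factors 8 passed upward and 2 downward, with a median of 0.40 and the largest at Zfand5 (1.49), a zinc-finger protein reported to stimulate the proteasome. Over all genes tested the median was -0.02, and 45.0% passed the test, 22.9% upward and 22.1% downward.

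The genes of PA28 alpha and beta, subunits of the activator linked to antigen processing, did not pass upward in the interaction at 1.0 µM. Psme1, PA28 alpha, averaged 31.1 ± 1.28, 27.9 ± 0.925 and 14.1 ± 1.51 CPM in T-N1G cells from vehicle to 1.0 µM, and 28.2 ± 0.865, 26.7 ± 1.32 and 20.9 ± 4.06 CPM in mock cells. It fell in both lines at 1.0 µM, with an interaction of -0.71 (SE 0.16, adjusted p = 0.00146). Psme2, PA28 beta, had no called interaction there (adjusted p = 0.996, SE 0.17). Between the lines, edgeR called Psme2 higher in T-N1G cells at 0.3 µM (log2 0.60, adjusted p = 0.000448) and 1.0 µM (log2 0.32, adjusted p = 0.0283). Under vehicle the difference was not called (log2 0.32, adjusted p = 0.0745). Of the activator genes Psme1, Psme2, Psme3 and Psme4, Psme4 was thus the one with a positive interaction past the test.

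**Figure D3:**
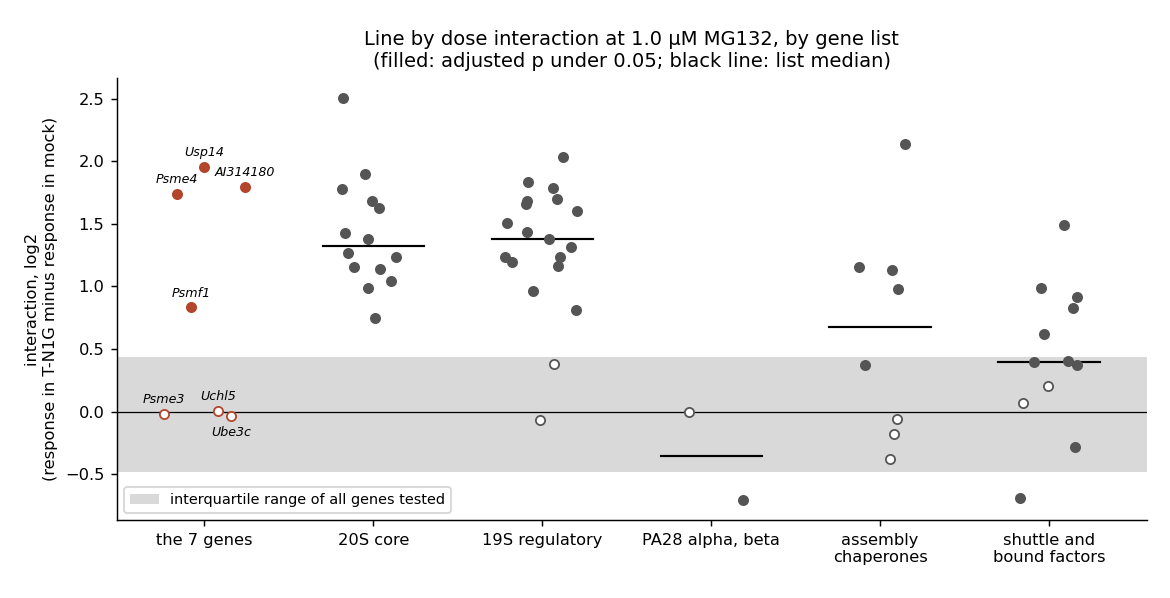
Interaction of line and 1.0 µM MG132 (log2, response in T-N1G cells minus response in mock cells) for the 7 genes (red, named) and for listed proteasome genes (grey), with filled points at an adjusted p under 0.05, black lines at list medians and a band over the interquartile range of all genes tested. Usp14, AI314180 and Psme4 lie at the height of the core and cap genes, and Psme3, Uchl5 and Ube3c lie at 0.

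Levels per transcript length, in FPKM, place the 7 genes against the core. In T-N1G cells under vehicle Psme3 had the highest level at 74.5 ± 4.97 FPKM, followed by AI314180 at 49.9 ± 0.773, Usp14 at 40.5 ± 1.15, Uchl5 at 31.8 ± 2.52, Ube3c at 31.5 ± 2.29, Psme4 at 27.3 ± 1.88 and Psmf1 at 8.58 ± 0.161 FPKM. In mock cells under vehicle the levels were 91.2 ± 1.24 FPKM for Psme3, 50.1 ± 1.11 for AI314180, 33.8 ± 1.34 for Usp14, 33.0 ± 0.848 for Ube3c, 31.5 ± 1.19 for Uchl5, 30.9 ± 0.496 for Psme4 and 8.58 ± 0.197 for Psmf1. Uchl5 and Ube3c in T-N1G cells, and Usp14 and Ube3c in mock cells, differed by less than their SDs. At 1.0 µM in T-N1G cells the order had changed, with AI314180 at 161 ± 21.005, Usp14 at 127 ± 9.14, and Psme3 at 84.3 ± 0.681 close to Psme4 at 82.3 ± 2.11 FPKM.

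The 14 core genes averaged 168 ± 7.38, 384 ± 26.1 and 409 ± 72.8 FPKM in T-N1G cells from vehicle to 1.0 µM, and 148 ± 4.78, 152 ± 1.19 and 142 ± 13.6 FPKM in mock cells. As a share of that mean, Psme4 was at 16.3% ± 1.25, 18.6% ± 1.15 and 20.4% ± 2.89 in T-N1G cells and at 20.9% ± 0.536, 20.03% ± 0.939 and 20.1% ± 1.10 in mock cells. The share of Psme4 stayed between 15.5% and 22.8% in all 18 libraries. Psme3 was at 44.4% ± 1.95, 22.9% ± 1.30 and 21.02% ± 3.60 in T-N1G cells and at 61.8% ± 1.27, 69.0% ± 3.11 and 75.4% ± 6.56 in mock cells, and the lines did not overlap at any treatment. Uchl5 was at 18.9% ± 0.656, 10.4% ± 0.238 and 8.18% ± 2.18 in T-N1G cells and at 21.4% ± 1.47, 23.6% ± 1.25 and 23.2% ± 5.61 in mock cells. Ube3c was at 18.8% ± 0.689, 7.11% ± 0.539 and 4.24% ± 0.98 in T-N1G cells and at 22.4% ± 0.999, 17.4% ± 0.699 and 13.2% ± 2.20 in mock cells. For both genes the T-N1G libraries with MG132 lay below all mock libraries. Psmf1, the least expressed of the 7, was at 5.11% ± 0.134, 5.14% ± 0.367 and 6.72% ± 1.33 in T-N1G cells and at 5.81% ± 0.214, 10.3% ± 0.394 and 11.02% ± 1.43 in mock cells. Usp14 and AI314180 stayed between 16.7% and 35.2% and between 28.7% and 45.1%. These shares are given as mean ± SD (n = 3), with no test, since 3 libraries against 3 cannot reach an exact permutation p under 0.1.

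**Figure D4:**
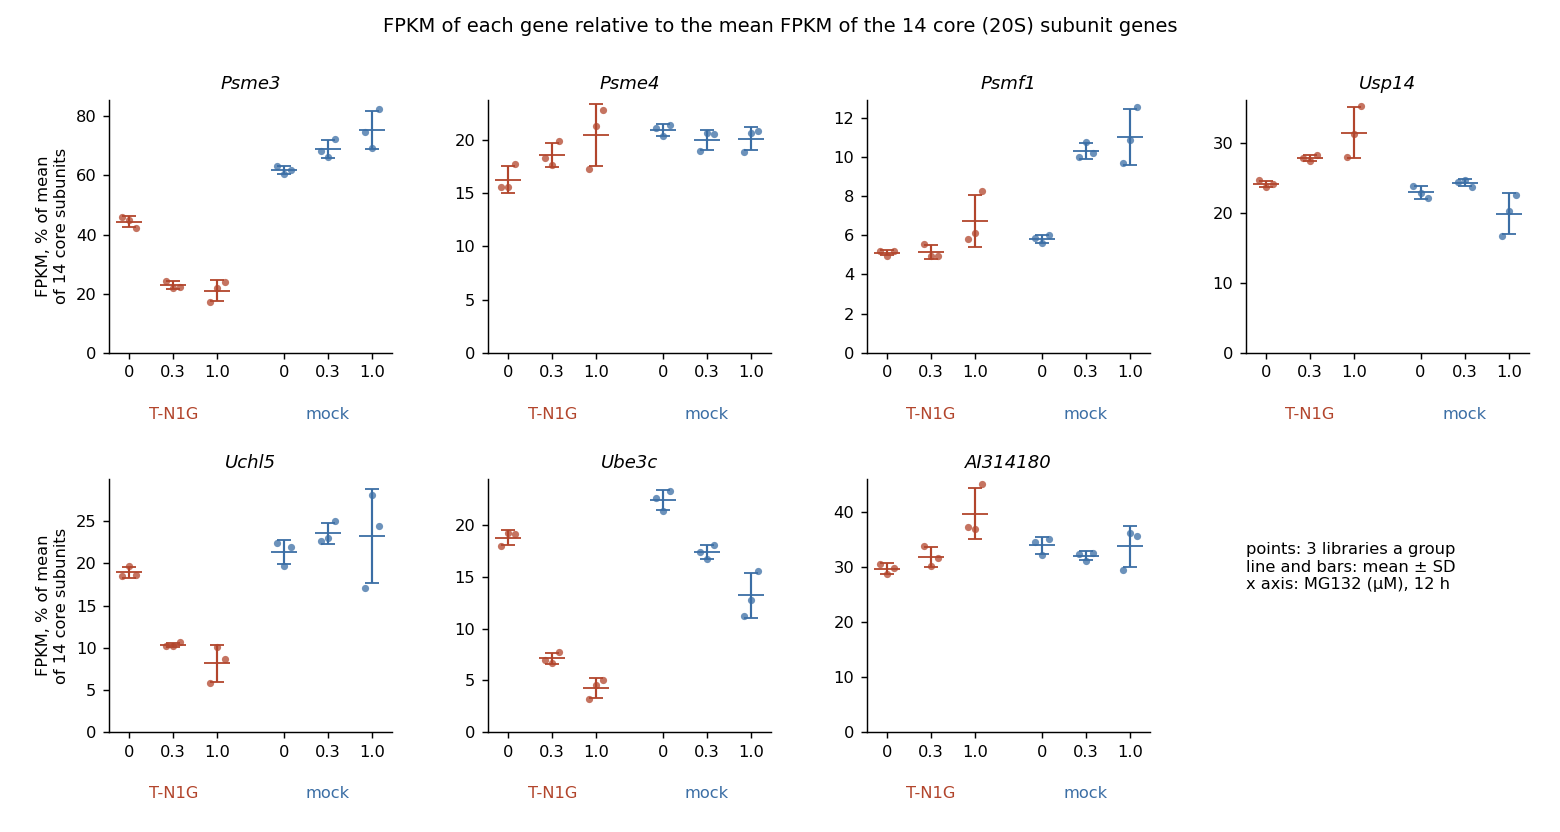
FPKM of each gene as a percentage of the mean FPKM of the 14 core genes in the same library (points), with the mean and SD of each group, by line and MG132 dose in µM. The share of Psme4 varies between 15.5% and 22.8% over all libraries. With MG132 those of Psme3, Psmf1, Uchl5 and Ube3c are lower in T-N1G than in mock libraries, without overlap at either dose.

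The lower level of Psme3 in T-N1G cells was set against its genomic surroundings. Of 97 other tested genes within 2 Mb of Psme3, 24 were lower and 2 higher in T-N1G than in mock cells under vehicle, with a median of -0.22 on the log2 scale, near the -0.30 of Psme3. Around Psme4, on the same chromosome, 9 of 29 neighbours were lower and 0 higher, with a median of -0.21, and Psme4 itself stood at -0.18 and was not called (adjusted p = 0.0792). DESeq2 called it (0.0328), as did fits of the 2 groups alone (0.00763) or of the vehicle and 0.3 µM libraries alone (0.00684). Over all other tested genes of chromosome 11 the median was -0.22, with 24.6% lower, where 7.72% were lower among all genes tested. Chromosome 4, which carries AI314180, had a median of -0.19 and 22.1% lower, yet the 21 neighbours of AI314180 had a median of 0.00, with 2 lower and 1 higher. The 13 neighbours of Usp14 had a median of 0.08, with 4 higher and 0 lower. Over its chromosome, 18, the median was -0.10, with 12.3% lower. At 0.3 and 1.0 µM the 97 neighbours of Psme3 had medians of -0.38 and -0.37. Of these, 49 and 50 were lower and 13 and 18 higher. The median of chromosome 11 was -0.25 and -0.22 at these doses, while Psme3 stood at -0.24 and -0.31. The part of this chromosome-wide difference in the level of Psme3 was not tested.

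**Figure D5:**
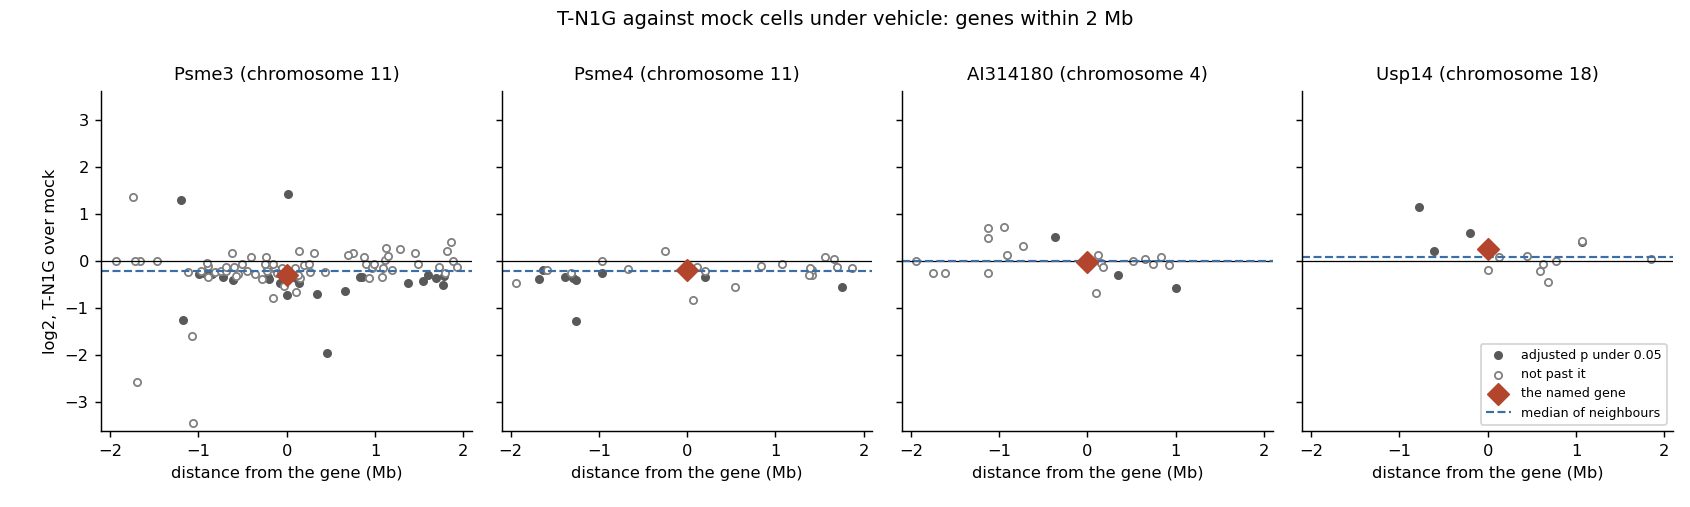
Log2 of T-N1G over mock cells under vehicle for tested genes within 2 Mb of Psme3, Psme4, AI314180 and Usp14, by distance from the gene in Mb (red diamonds, the named gene; filled points, adjusted p under 0.05; dashed line, median of the neighbours). The neighbours of Psme3 and Psme4 lie mostly below 0, at medians of -0.22 and -0.21, and those of AI314180 around 0.

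Over the 18 libraries, Psme4, Usp14 and AI314180 had near-parallel profiles, with Pearson's r of log2 CPM of 0.986 between AI314180 and Psme4, 0.98 between AI314180 and Usp14 and 0.971 between Usp14 and Psme4. The genes most like Psme4 among all tested were Phf1 (r = 0.991), Psmd3 (0.988) and Ube2o (0.987). For AI314180 they were Vipas39 (0.991), Prpf19 (0.99) and Psmd3 (0.99), and for Usp14 they were Usp45 (0.995), Anxa7 (0.993) and Abhd4 (0.992). Psmd3, a cap subunit, was thus among the 3 nearest profiles of both Psme4 and AI314180. Psmf1 was nearest to Zfp142 (0.994), Usp3 (0.987) and 2410131K14Rik (0.987), Ube3c to Reep4 (0.982), Arpin (0.977) and Pgap2 (0.977), and Psme3 to Aatf (0.937) and Hpse (0.924). Uchl5 had the loosest neighbours, with Dcps at 0.871, Nemf at 0.817 and Sirt2 at 0.811. These values describe 18 points that share 6 groups and the same libraries, and carry no test.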

How the data were processed

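The 18 libraries of polyadenylated RNA were made with a strand-specific kit, per the labels' protocols. Build mm9 is named in the submitters' processing notes, beside Cuffdiff 2.1.1, TopHat2 2.0.8b and bcl2fastq 2.16.0.10. The sources used here do not give the annotation, the filters or the strand setting. Per the file headers, the deposited table holds, for each library, every gene's estimated count (fragments, unscaled) and its FPKM after Cuffdiff's scaling. At least 98.16% of the estimated counts deposited in each library were whole within 1e-06, and all were rounded. The condition names in the table were taken to give line and dose, and its replicate index the library number. The files do not state either link to the sample titles.

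A gene with the Cuffdiff status HIDATA in any library was dropped from all tests. Libraries of a group differed by more than counting noise (chi-square over degrees of freedom of 2.92 or more), so none was counted as a duplicate. Fragments carry no molecular identifiers. The SE and p-values rest on the spread between libraries within groups, which may be technical alone. That spread is pooled over all 6 groups and moderated across genes, so it is not that of the groups compared. As the libraries at 1.0 µM varied more than those under vehicle, the SE can be too small at 1.0 µM and too large under vehicle. Tests used edgeR 4.0.16 (R 4.3.3), with TMM scaling, its expression filter and the robust quasi-likelihood F test, in 1 fit of 6 group means over all 18 libraries. A call means an adjusted p (Benjamini-Hochberg, over 13258 genes) under 0.05. Levels are TMM-scaled CPM, and SE is the log2 change over the square root of F. Log2 CPM for correlations used a prior count of 2. Alternatives were other scalings, no filter, a replicate block, DESeq2 1.42.0, limma 3.58.1 on log2(FPKM + 0.1) and log2(FPKM + 1), fits of the groups compared, and each library left out. Changes on the log2(FPKM + pseudocount) scale understate those of low genes. A fit of the vehicle and 0.3 µM libraries alone and the wider promoter element were added after seeing the data. Named genes are the 7 in every comparison, the largest change in each pathway list, and the 3 most similar profiles of each, of which 1 for Psme3 is not reported here. Thoc1, Psme1 and Psme2 were added for locus overlap and family. The 7 genes and the lists were chosen with earlier results of these data known.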

Additional observations from a re-analysis of the deposited data

Results flagged for a closer look

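The response to MG132 differed between T-N1G and mock cells, by edgeR's test of the interaction itself, in 4 of the 7 genes. Of all genes tested, that test called 25.1% at 0.3 µM (14.2% higher) and 45.0% at 1.0 µM (22.9% higher). At 0.3 µM the interaction on the log2 scale was 1.42 for Psme4 (adjusted p = 1.47e-08), 1.35 for AI314180 (4.18e-07), 1.29 for Usp14 (9.40e-08) and 0.35 for Psmf1 (0.0328). At 1.0 µM it was 1.95 for Usp14 (1.83e-10), 1.79 for AI314180 (3.89e-09), 1.74 for Psme4 (3.78e-10) and 0.83 for Psmf1 (1.47e-05). In each of these 8 cases the response of T-N1G cells was the more positive one. The call of Psmf1 at 0.3 µM held in 12 of 21 alternatives. With 3 libraries a group, single libraries were not screened for outliers.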

How the results depend on the processing

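Under the settings run on all libraries, 580 of 651 recomputed results kept direction and call, 21 lost the call, 23 gained one and 27 changed sign. With a library left out the counts were 465, 39, 9 and 33 of 546. No difference that changed sign was called before or after the change. The interactions of Psme4, Usp14 and AI314180 were called in all 21 alternatives at 0.3 µM and all 20 at 1.0 µM. At 1.0 µM they ranged over 1.67 to 1.74, 1.84 to 1.99 and 1.65 to 1.88, and that of Psmf1 over 0.73 to 0.92. Of the 7 genes, 2 were called between the lines under vehicle, 1 to 2 with libraries left out, and 1 without T-N1G vehicle library 1 or 2 or mock vehicle library 3. The step from 0.3 to 1.0 µM in T-N1G cells called 6, but 3 with only the groups compared and 3 to 5 with libraries left out. MG132 at 0.3 µM in mock cells called 3, but 2 to 5 under settings on all libraries and 2 to 3 with libraries left out. The count was 5 with only the groups compared and with the vehicle and 0.3 µM libraries. Over all genes, 2141 differed between the lines under vehicle, 4882 with only these groups fitted, 4845 with the vehicle and 0.3 µM libraries, and 1288, 1407 and 1311 without T-N1G vehicle library 1, mock vehicle library 1 or mock vehicle library 2. The interaction at 0.3 µM called 3332 genes, and 5873 in the fit of its 4 groups. Fits of only the groups compared called fewer genes in every comparison with a 1.0 µM group. Between the lines at 1.0 µM the count was 5715 against 8209, and for the interaction 5099 against 5964. Between the lines there, the highest adjusted p over settings on all libraries was 7.36e-06 for Usp14 and 3.42e-05 for AI314180. The main fit gave 8.11e-14 and 9.43e-12. The cause of these changes was not tested.

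The sign changed for the following differences, none of them called. For Uchl5 the lines at 1.0 µM differed by -0.0093 with DESeq2 size factors, -0.0092 with DESeq2, -0.044 by library size and -0.046 with no filter. Its change at 1.0 µM in T-N1G cells was 0.044 with DESeq2 size factors, 0.044 with DESeq2, 0.025 and 0.024 on the FPKM scale and 0.0069 with only the groups compared. In mock cells it was 0.071, 0.071, 0.033, 0.033 and 0.043 in the same order, and 0.034 with no filter. Its interaction at 1.0 µM was -0.027 with DESeq2 size factors, -0.026 with DESeq2, -0.046 by library size, -0.057 with no filter and -0.0089 and -0.0090 on the FPKM scale. Psme3 at 1.0 µM in T-N1G cells had -0.0066 by library size. Its step from 0.3 to 1.0 µM in mock cells was 0.033 with DESeq2 size factors, 0.033 with DESeq2, 0.025 and 0.025 on the FPKM scale and 0.028 with only the groups compared.

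With libraries left out, Uchl5 ranged over -0.054 to 0.053 between the lines under vehicle, -0.17 to 0.16 between them at 1.0 µM, -0.15 to 0.10 and -0.15 to 0.19 for 1.0 µM in T-N1G and mock cells, and -0.18 to 0.15 for the interaction at 1.0 µM. Between the lines under vehicle the range was -0.023 to 0.0050 for AI314180 and -0.020 to 0.010 for Psmf1. In the step from 0.3 to 1.0 µM in mock cells it was -0.053 to 0.048 for Psme3 and -0.087 to 0.0082 for Psmf1. As interactions, Psme3 ranged over -0.0067 to 0.10 at 0.3 µM and -0.11 to 0.027 at 1.0 µM, and Ube3c over -0.14 to 0.013 at 1.0 µM. Scaling by library size moved the median of all genes at 1.0 µM to -0.15 in T-N1G and -0.13 in mock cells, against -0.01 and -0.04 with TMM. Same-numbered libraries of different groups correlated in their deviations at over 0.1 in 33 of 45 pairs (lowest -0.18, highest 0.73), and in 32 the own number gave the highest correlation. All 3 numbers were over 0.1 in 6 of 15 pairs of groups, among them 5 of the 9 comparisons of 2 groups, and in these a replicate block changed 0 calls of the 7 genes. As the other pairs of groups fell short, the fit over all libraries was left unpaired. Among the 7 genes the block changed 1 call, Psme3 at 1.0 µM in mock cells (0.15, adjusted p = 0.0471), with 5 called there in place of 4. Over all genes it called more in every comparison, as 2608 against 2141 between the lines under vehicle. The shares of all genes called thus depend on this choice.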
